A study of Mus musculus with 30 samples.

Results

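The heat shock proteins and their DnaJ partners were examined as one chaperone family in the hypothalamus of *Per3* knock-in (KI) mice. Members were all probes, control spots apart, whose gene name began with Hspa, Hspb, Hspd, Hspe, Hsph, Hsp90, Dnaja, Dnajb or Dnajc. The rule took in 144 of the 41174 probes on the array and 74 of its 28146 gene names. Of these, 135 probes of 73 genes passed the filter on dim probes and were tested. The other 9 were probes for *Dnajb4*, *Dnajb7*, *Dnajc5b*, *Dnajc5g*, *Hspa13* (a pair of probes), *Hspa4*, *Hspb7* and *Hspb11*, and of these genes *Dnajb7* alone had no other probe in the tests. The rule also took in *Hspbp1* and *Hspbap1*, which share the first letters of the name but are not small heat shock proteins.

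Chaperones bind unfolded or partly folded proteins and keep them from aggregating. The Hsp70 proteins (Hspa) do so in cycles of ATP binding and hydrolysis, the J proteins (Dnaja, Dnajb and Dnajc) deliver substrates to them and start the hydrolysis, and the Hsp110 proteins act as their nucleotide exchange factors. Heat shock factor 1 raises the inducible cytosolic members when proteins unfold in the cytosol, and the unfolded protein response raises *Hspa5* (also called BiP or Grp78) and its partners when they unfold in the endoplasmic reticulum (ER). In the rodent brain *Hspa5* and the inducible Hsp70 genes are known to rise with prolonged wakefulness, which is why their levels were of interest in mice made to study a *PER3* polymorphism linked to sleep homeostasis.

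The arrays measured RNA of 30 male mice, 1 array per mouse, in 2 runs. The runs were told apart by the layout of the scanner output, with 62 columns in run 1 and 26 in run 2. No sample title names a run. Run 1 held 7 *Per3* 5/5 mice and 7 wild-type (WT) mice, and run 2 held 8 *Per3* 4/4 mice and 8 WT mice. In the *Per3* 5/5 mice (named Boxhill in the labels) the exon of mouse *Per3* that corresponds to the human repeat region had been replaced by the human exon with 5 repeats, and in the *Per3* 4/4 mice (named Coach) by the human exon with 4 repeats. Both lines came from Bruce4 embryonic stem cells, chimeras were crossed to C57BL/6J, and KI and WT animals of a line descended from the same conditional allele. All 4 groups were adult and shared the same treatment, a schedule of 3.5 h light and 3.5 h dark, with brains collected in the light phase of cycle 17. The labels name no sleep deprivation for these arrays, and each KI line was set only against the WT mice of its own run. Nothing in the labels ties mice to litters, so p-values measure the spread between animals within a run.

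Levels are given as the log2 of a probe's background-subtracted signal minus the 75th percentile of its own array, so that 0 marks the 75th percentile. Before this step the percentile was at an intensity of 752.3 to 1546 in the *Per3* 5/5 arrays and 907.2 to 1090.6 in their WT arrays. It was at 347 to 1370 in the *Per3* 4/4 arrays and 490 to 1260 in the WT arrays of run 2. The array of *Per3* 4/4 mouse 5 was the dimmest of all (347, with 58.63% of spots well above background), and the array of WT mouse 15 was the next (490, 60.95%). The larger log2 fold changes that rest on these arrays are therefore also given without them. All 15 hypothalamic neuropeptide and transcription factor genes with a probe, among them *Hcrt* (orexin), *Pmch*, *Agrp* and *Pomc*, were above background on at least 1 array. In bulk tissue, fewer cells of a type and less RNA per cell cannot be told apart.

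No chaperone probe was called in either KI line. In the *Per3* 5/5 mice, 0 of 135 member probes passed an adjusted p of 0.05 (limma, Benjamini-Hochberg over 29946 probes), and so did 0.0% of all probes tested. At an unadjusted p of 0.05, 9 member probes of 7 genes passed (6.67%), against 6.17% of all probes. In the *Per3* 4/4 mice, again 0 member probes passed the adjusted test, against 0.0134% of all probes (4 probes). At an unadjusted p of 0.05 no member passed there, against 1.73% of all probes. The difference between the effects of the alleles, tested in the same fit, was called for 0 members and for 0.0% of all probes. It passed the unadjusted p for 2 members (1.48%), *Dnaja1* and *Hspa9*, against 2.98% of all probes.

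The members shifted by little as a family. Their median log2 fold change was 0.02 in the *Per3* 5/5 mice, where all probes had a median of -0.02, and the single values ran from -0.50 (*Dnajc24*) to 0.59 (*Dnajc22*). The median in the *Per3* 4/4 mice was 0.02, against 0.01 over all probes, and values ran from -0.46 (*Dnajb4*) to 0.27 (*Hspa13*). By the rank product within each run, 336 probes were called in *Per3* 5/5 and 48 in *Per3* 4/4, and 0 members in either. Positive values were found for 74 of 135 probes in *Per3* 5/5 and for 79 of 135 in *Per3* 4/4, against 13632 and 15478 of all 29946 probes. Of the 9 probes at an unadjusted p of 0.05 in *Per3* 5/5, 6 were higher (4.44%, against 3.43% of all probes) and 3 were lower (2.22%, against 2.74%). For no member did the KI and WT values separate without overlap, while 0.174% of all probes did so in *Per3* 5/5 and 0.0134% in *Per3* 4/4. Members also varied less between mice than the array as a whole, with a median residual SD of 0.27 on the log2 scale against 0.34. More of them were well detected, with 121 of 135 well above background on every array, against 22267 of 29946 probes. The spread was not compared at matched levels.

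**Figure D1:**
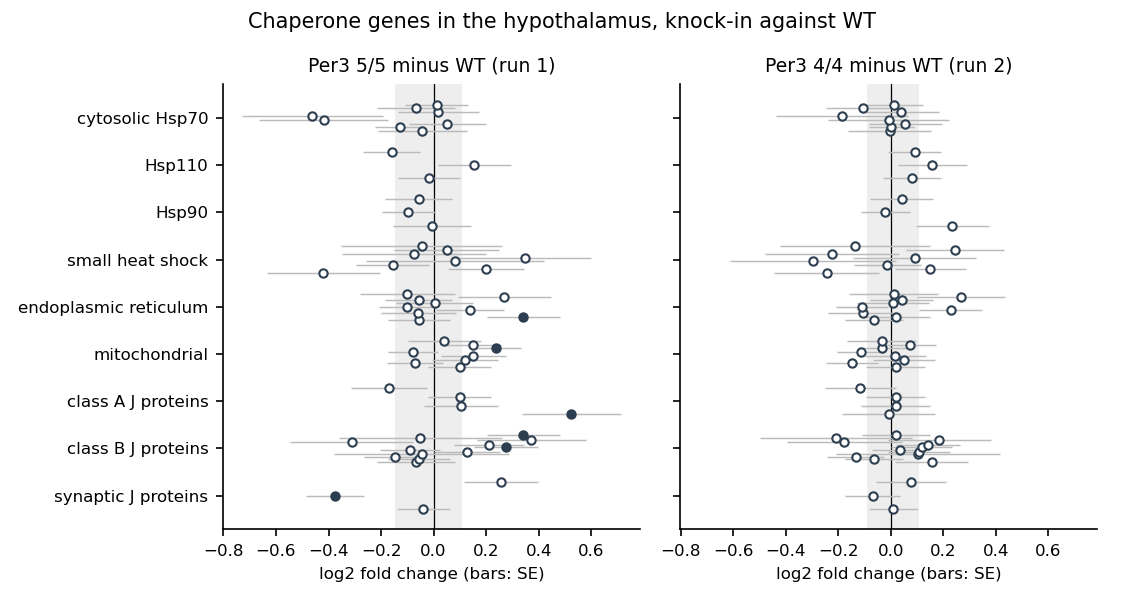
Log2 fold change against WT (horizontal axis, bars SE) of the main probe (the one with the highest mean level) of each chaperone gene, in rows by group, for *Per3* 5/5 (left panel) and *Per3* 4/4 (right panel); the shaded band holds the middle 50% of all probes tested, filled points had an unadjusted p under 0.05, members of no listed group are not drawn, and genes of more than 1 group are drawn in each. Points ran from -0.46 (*Hspa1b*) to 0.52 (*Dnaja1*) in *Per3* 5/5 and from -0.30 (*Hspb3*) to 0.27 (*Hspa13*) in *Per3* 4/4, where none is filled.

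*Hspa5* encodes the main Hsp70 of the ER, which holds the stress sensors of the unfolded protein response inactive until client proteins draw it away. Its probe lies at chr2:34631630-34631689 (mm9, from the array's own annotation). In the *Per3* 5/5 mice its log2 level was 3.63 at the lowest, 4.13 at the median and 4.93 at the highest, and in the WT mice of that run it was 3.90, 4.27 and 4.67. Mice 1, 5 and 7 held the low *Per3* 5/5 values and mouse 6 the high one, so that the WT range lay inside the KI range. The log2 fold change was -0.10 (SE 0.18, limma p = 0.587, adjusted p = 0.984), and it ran from -0.22 without mouse 6 to -0.004 without mouse 7. Values in the *Per3* 4/4 mice were 3.95, 4.56 and 5.23, and in the WT mice of run 2 they were 4.31, 4.50 and 4.90. The highest value belonged to mouse 5, on the dimmest array, and the lowest to mouse 3, with the WT range again inside that of the KI mice. The log2 fold change there was 0.01 (SE 0.17, p = 0.954, adjusted p = 1.0), and its sign depended on single arrays, from -0.09 without *Per3* 4/4 mouse 5 to 0.09 without *Per3* 4/4 mouse 3. The effects in the 2 lines differed by -0.11 (SE 0.25, p = 0.663).

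*Hspa1b* and *Hspa1a* are neighbouring genes for the inducible cytosolic Hsp70, among the steepest responders to heat and proteotoxic stress. The copies are nearly identical, and a probe for one may also take up transcript of the other. The better detected *Hspa1b* probe lies at chr17:35094200-35094259 (mm9). Its log2 level was -2.56, -1.52 and -0.65 (lowest, median and highest) in the *Per3* 5/5 mice and -2.001, -1.28 and -0.33 in their WT mice. Mice 1 and 7 were the lowest of all 14 mice in the run, and the rest of the *Per3* 5/5 values lay within the WT range. The log2 fold change was -0.46 (SE 0.27, limma p = 0.0956, adjusted p = 0.81), and -0.30 without mouse 1. *Per3* 4/4 mice had values of -1.60, -0.60 and -0.45, against -1.21, -0.68 and 0.06 in WT. Mouse 3 was lowest there, WT mouse 15 was highest, and the groups overlapped, with a log2 fold change of -0.19 (SE 0.25, p = 0.463, adjusted p = 1.0), and of -0.089 without WT mouse 15 or -0.074 without mouse 3. The difference between the lines was -0.28 (SE 0.37, p = 0.46). A second *Hspa1b* probe, which was dim and had the largest residual SD of all members (0.73), gave -0.14 and -0.02.

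For *Hspa1a*, one probe gave 0.23, 1.09 and 1.67 in the *Per3* 5/5 mice and 0.68, 1.36 and 2.00 in their WT mice. Mice 1, 5 and 7 were again the low ones, and 2 of 7 KI mice lay above the WT mean. That probe had a log2 fold change of -0.47 (SE 0.23, limma unadjusted p = 0.05, adjusted p = 0.796), and the other gave -0.42 (SE 0.25, p = 0.0993). For *Per3* 4/4 mice the probes gave -0.05 and -0.01, with both signs found when single arrays were left out.

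**Figure D2:**
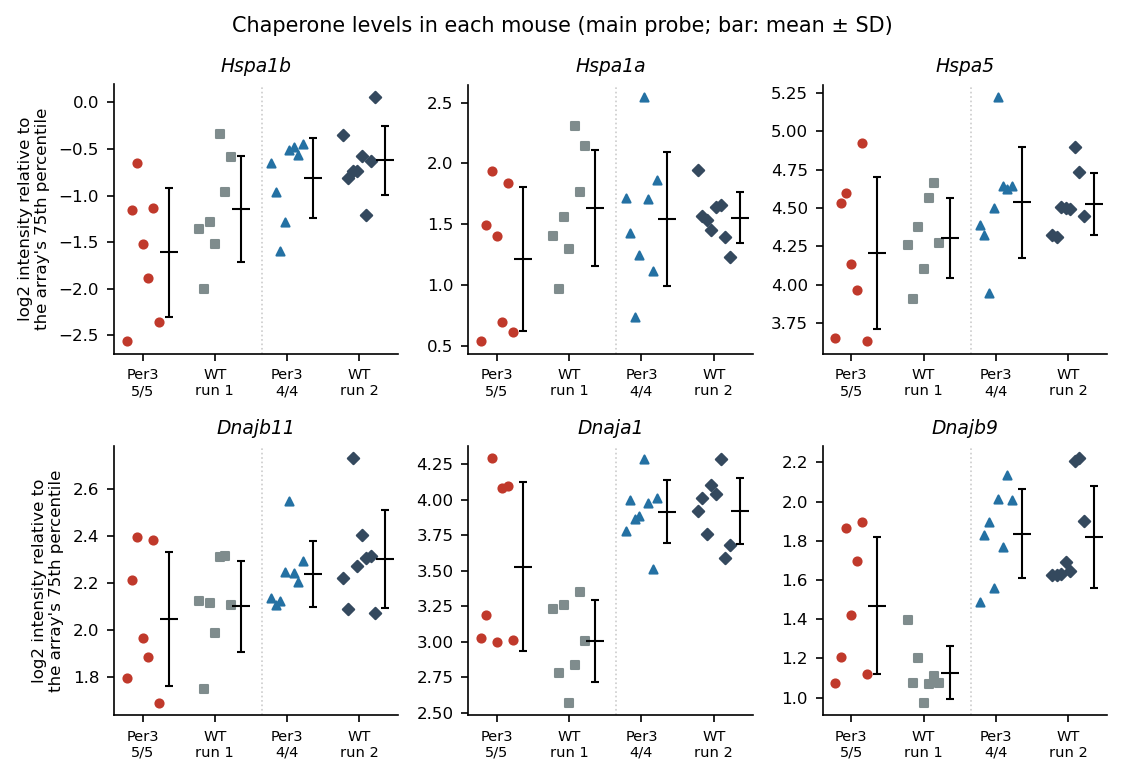
Log2 level (vertical axis, relative to the 75th percentile of the array) of 6 chaperones in each mouse by the gene's main probe, which for *Hspa1a* is the one with a log2 fold change of -0.42 in *Per3* 5/5. Points are mice and bars the group mean ± SD, and in every panel the KI and WT points of a run overlap.

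The other cytosolic Hsp70 genes and the Hsp110 and Hsp90 genes did not pass the unadjusted test in either line. *Hspa8* encodes the constitutive Hsp70 that, among other tasks, strips clathrin from endocytosed vesicles, and its main probe (the one with the highest mean level) gave 0.01 on the log2 scale in each line. A dimmer *Hspa8* probe gave 0.33 in *Per3* 5/5 (SE 0.20, p = 0.114) and 0.03 in *Per3* 4/4. By that probe *Per3* 5/5 mouse 3, on the brightest array of its group, was at 4.79 and the next KI mouse at 4.02. Of the 8 cytosolic Hsp70 genes, 0 passed the unadjusted test in either line by their main probe, and their median log2 fold change was -0.06 in *Per3* 5/5 and 0.00 in *Per3* 4/4. *Hsph1*, the heat-inducible Hsp110, stood at -0.16 (p = 0.153) and 0.09 (p = 0.384). Of the 3 Hsp90 genes, which mature kinases and steroid receptors, *Hsp90aa1* (the inducible form) gave -0.01 in *Per3* 5/5 and 0.23 in *Per3* 4/4 (SE 0.14, limma p = 0.104, adjusted p = 1.0). Its *Per3* 4/4 levels were 5.65, 6.06 and 7.08 against 5.63, 5.98 and 6.44 in WT, with the highest value again in mouse 5, without which the log2 fold change was 0.11.

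Among the ER members, a probe each for *Dnajb9* and *Dnajc1* was at an unadjusted p of 0.05 in *Per3* 5/5, as were 6.17% of all probes. *Dnajb9* (ERdj4) is a J protein of the ER that is induced by *Xbp1*. Its log2 level was 1.08, 1.42 and 1.90 in the *Per3* 5/5 mice and 0.97, 1.08 and 1.40 in their WT mice. Mice 3, 5 and 6 and, by little, mouse 4 lay above every WT mouse, and the other 3 lay within the WT range. The log2 fold change was 0.34 (SE 0.14, limma p = 0.02, adjusted p = 0.796), and in the *Per3* 4/4 mice it was 0.02. Its other probes gave 0.30 (p = 0.0701) and 0.02 (p = 0.905) in *Per3* 5/5. *Dnajc1*, another membrane-bound J protein of the ER, was lower by one of its probes in *Per3* 5/5, with levels of 0.11, 0.48 and 0.66 against 0.55, 0.79 and 1.00 in WT. All 7 KI mice lay below the WT mean, with a log2 fold change of -0.32 (SE 0.15, p = 0.0372, adjusted p = 0.796). A different *Dnajc1* probe had the smallest p of any member in *Per3* 4/4 (-0.20, SE 0.11, p = 0.0668, adjusted p = 1.0, and -0.13 without WT mouse 10), and 1 of those 8 mice lay above the WT mean. *Dnajc10* (ERdj5), a disulfide reductase of the ER, gave 0.23 in *Per3* 4/4 (p = 0.0696, adjusted p = 1.0), with 7 of 8 mice above the WT mean. *Hspa13*, a small ER-associated Hsp70, gave 0.27 in each line by its main probe (p = 0.14 and 0.118), and 0.15 in *Per3* 4/4 without mouse 5. By another *Hspa13* probe the groups overlapped closely in *Per3* 4/4, with levels of 1.01 to 1.87 against 0.93 to 1.72 in WT. In *Per3* 5/5 that probe was at 1.05 to 1.70 against 0.74 to 1.48. *Hsp90b1* (Grp94), *Dnajb11* (ERdj3) and *Dnajc3* (p58IPK), which fold secretory proteins beside *Hspa5* or feed back on the stress response, had log2 fold changes of -0.06, -0.06 and 0.00 in *Per3* 5/5 and of 0.04, -0.06 and 0.01 in *Per3* 4/4.

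In the mitochondrial group, 1 of 8 genes was at an unadjusted p of 0.05 in *Per3* 5/5, against 6.17% of all probes. In *Per3* 4/4 0 were, against 1.73%. *Hspa9* (mortalin) is the Hsp70 of the mitochondrial matrix and pulls precursor proteins through the inner membrane. Its levels were 2.69, 3.03 and 3.38 in the *Per3* 5/5 mice and 2.69, 2.78 and 2.94 in WT. Mouse 4 lay below the WT range, mouse 2 just inside it, and the other 5 above it, and the log2 fold change was 0.24 (SE 0.10, limma p = 0.0187, adjusted p = 0.796). In the *Per3* 4/4 mice it was -0.03, and the difference between the lines was 0.27 (SE 0.13, p = 0.0474, adjusted p = 1.0). A second *Hspa9* probe gave -0.06 in *Per3* 5/5 (SE 0.16, p = 0.732), with mice 3, 5 and 6 the lowest of their group, and 0.05 in *Per3* 4/4. Its probes thus had values of opposite sign, and no direction was given for *Hspa9* transcript. *Hspd1* and *Hspe1*, the Hsp60 chaperonin and its lid, gave 0.15 and 0.04 in *Per3* 5/5 and 0.07 and -0.04 in *Per3* 4/4.

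The small heat shock proteins hold unfolded proteins without using ATP. None of the 8 genes passed the unadjusted test in either line. *Hspb1* (Hsp25), the stress-inducible one, came nearest, with -0.42 (SE 0.22, limma p = 0.0607) in *Per3* 5/5 and -0.25 (SE 0.20, p = 0.234) in *Per3* 4/4. Its levels were 0.04, 0.90 and 1.62 in the *Per3* 5/5 mice and 0.62, 1.17 and 1.95 in WT, with mice 1, 5 and 7 at the low end as for *Hspa1a*. *Hspb8* and *Hspb3* gave 0.24 and -0.30 in *Per3* 4/4, and for *Hspb3* one WT mouse (mouse 10, at 0.43) lay far above the others; without it the values were 0.14 for *Hspb8* and 0.09 for *Hspb3*.

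Of the 9 probes at an unadjusted p of 0.05 in *Per3* 5/5, 7 were for J proteins, which is 8.05% of the 87 J protein probes tested, against 6.17% of all probes. The other two were those of *Hspa9* and *Hspa1a*. *Dnaja1*, a class A J protein that is heat-inducible and serves cytosolic Hsp70, had 2 of them. By one probe its levels were 3.00, 3.19 and 4.29 in the *Per3* 5/5 mice and 2.57, 3.01 and 3.35 in WT. Mice 3, 5 and 6 stood at 4.29, 4.08 and 4.10, above every WT mouse, while the other 4 lay within the WT range. The log2 fold change was 0.52 (SE 0.19, limma p = 0.00939, adjusted p = 0.796), a second probe gave 0.50 (p = 0.0168) and another 0.24 (p = 0.236, with mouse 3 at 3.40 and the next KI mouse at 2.90). The 3 probes gave -0.01, -0.03 and 0.02 in the *Per3* 4/4 mice, and the difference by the first probe between the lines was 0.53 (SE 0.26, p = 0.0478, adjusted p = 1.0). *Dnajb3*, best known from testis, gave 0.28 (p = 0.033), with all 7 mice above the WT mean.

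*Dnajc5* encodes cysteine string protein alpha, the J protein of synaptic vesicles that keeps the release machinery folded, and its probes disagreed. One probe, at chr2:181286645-181286704 (mm9), had the smallest p of any member. Its levels were 4.48, 4.81 and 4.97 in the *Per3* 5/5 mice and 4.74, 5.21 and 5.26 in WT. All 7 KI mice lay below the WT mean, mice 3, 5 and 6 lay below every WT mouse, and the log2 fold change was -0.37 (SE 0.11, limma p = 0.00206, adjusted p = 0.796). A probe of the same gene at chr2:181287019-181287078 went the other way, at 0.24 (SE 0.11, p = 0.0302), with mice 3, 5 and 6 above every WT mouse. In the *Per3* 4/4 mice they gave -0.07 and 0.10. No direction was therefore given for *Dnajc5* transcript.

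The remaining named J proteins did not pass even the unadjusted test. In *Per3* 5/5, *Dnajc22* gave 0.59 (SE 0.36, p = 0.113) and *Dnajc24*, a J protein of diphthamide synthesis, gave -0.50 (SE 0.30, p = 0.11, and -0.29 without mouse 3). For *Dnajc22* only 4 of 7 WT arrays of that run were above background, and WT mouse 5 was at -7.73, without which the value was 0.24. In *Per3* 4/4, one *Dnajb4* probe gave -0.46 (SE 0.26, p = 0.09, and -0.19 without WT mouse 12) and a better detected one 0.14 (0.088 without mouse 5), so that *Dnajb4* too had no settled direction. *Dnajb6*, a suppressor of polyglutamine aggregation, gave 0.21 by one probe (p = 0.102, and 0.10 without mouse 4), *Dnajb5* gave -0.30 (p = 0.191, and -0.15 without mouse 5 or -0.16 without WT mouse 15), *Dnajc11* of the mitochondrial membrane -0.15 (p = 0.147, and -0.075 without mouse 4), and the ribosome-bound *Dnajc2* 0.13 (p = 0.187).

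The same 3 mice recurred in the *Per3* 5/5 values, and they had the brightest arrays of their group. The 75th percentile stood at 1546 for mouse 3, 1260.3 for mouse 6 and 988.3 for mouse 5, and at 752.3 to 941.1 for the other 4. For 7 of the 9 member probes at an unadjusted p of 0.05 these mice held either the 3 highest values (5 probes) or the 3 lowest (2 probes) of the group. That was so for 64 of all 135 members (47.4%), for 42.7% of all probes and for 73.9% of all probes at an unadjusted p of 0.05. With brightness entered as a term within the run, 0 members were called, and 24 (17.8%) against 17.4% of all probes were at an unadjusted p of 0.05. Without mouse 5, 5 members (3.7%) against 2.88% of all probes were at that p. Without mouse 3 the count was 7 (5.19%, against 2.69%), and without mouse 6 it was 6 (4.44%, against 3.17%). The count was 15 (11.1%) without mouse 1, against 9.73% of all probes, and 15 without mouse 2, against 7.97%. What part the brightness of the arrays had in these values was not tested further.

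Markers of choroid plexus, a tissue next to the hypothalamus, had median values of opposite sign in the lines. The 12 choroid plexus genes (most abundant *Clic6*) had a median log2 fold change of -0.77 in *Per3* 5/5, with 12 of 12 lower, and of 0.92 in *Per3* 4/4, with 11 of 12 higher. Their summed log2 level ran from 2.10 to 3.25 in *Per3* 5/5 and from 2.80 to 3.60 in the WT mice of that run, and from 2.08 to 4.64 in *Per3* 4/4 and from 1.40 to 4.52 in theirs. Every gene of this list was above background on some array, the groups overlapped, and none of the genes passed the adjusted test. At an unadjusted p of 0.05, 1 was lower in *Per3* 5/5 (*Tmem72*, p = 0.0266), 3 were higher in *Per3* 4/4 (smallest p for *Clic6*, 0.00294), and 5 differed between the lines. Of 7 markers of meninges and fibroblasts, 7 were lower in *Per3* 5/5 (median -0.24) and 6 higher in *Per3* 4/4 (median 0.13), with 1 at an unadjusted p of 0.05 in *Per3* 4/4 (*Lum*, p = 0.0176). In *Per3* 5/5, 8 of 9 endothelial markers (median -0.12) and 7 of 8 oligodendrocyte markers (median -0.13) had negative values and 13 of 15 hypothalamic neuron markers (median 0.23) positive ones, and in *Per3* 4/4 the medians were -0.04, 0.02 and 0.24. For smooth muscle and pericytes the medians were -0.08 and 0.01. No gene of these 4 lists passed the unadjusted test in either line, nor did any among the markers of blood (5 genes, most abundant *Hbb-b1*), pituitary (7, *Gh*), astrocytes (7, *S100b*), microglia (8, *Tyrobp*), ependyma and tanycytes (7, *Ccdc153*) and thalamus (6, *Slc17a6*). Their median log2 fold changes in *Per3* 5/5 were -0.07, 0.18, -0.21, 0.04, -0.15 and 0.22 in that order, with 7 of 7 astrocyte genes and 5 of 5 blood genes lower. In *Per3* 4/4 they were -0.25, -0.81, -0.01, -0.17, 0.27 and 0.32, with 5 of 5 blood genes and 7 of 8 microglial genes lower. The part of dissection in the chaperone values was not tested.

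**Figure D3:**
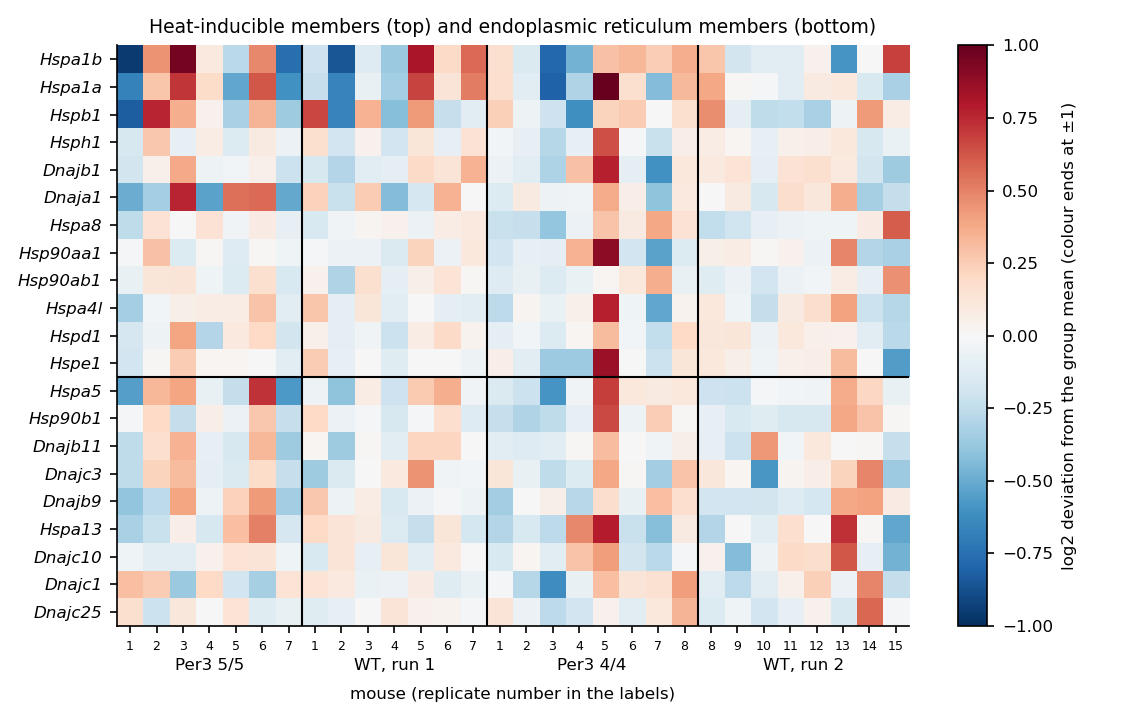
Deviation of each mouse from its group mean (log2 scale, colour, ending at 1 in either direction) for the main probe of 12 heat-inducible and 9 ER members (rows), with a column for each mouse, grouped by genotype and run. *Per3* 5/5 mice 1, 5 and 7 are low for *Hspa5*, *Hspa1a* and *Hspa1b*, and *Per3* 4/4 mouse 5 is high for *Hspa5*, *Hsph1*, *Dnajb1* and *Hsp90b1*.

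Beyond genotype, the data hold a second pattern, since the mice of a group differed from one another and the chaperones could differ together. For 6 pairs chosen by known pathway, the deviations from the group means were correlated over the 30 mice, with permutation p-values adjusted over the 6 pairs. The tests were two-sided, and 1e-05 was the smallest p the permutations could give.

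*Hspa5* varied together with its ER partners. With *Dnajb11*, the cochaperone that brings it unfolded secretory proteins, r was 0.805 (permutation p = 1e-05, adjusted p = 6e-05, Spearman rho 0.862). Within run 1 r was 0.964 and within run 2 it was 0.552 (adjusted p = 0.0602, permutation). With *Hsp90b1*, the Hsp90 of the ER, r was 0.682 (permutation p = 8e-05, adjusted p = 0.00016, rho 0.589), and it was 0.525 in run 1 (permutation p = 0.0977) and 0.884 in run 2. Leaving out the 2 mice farthest from the median of *Hspa5* gave 0.743 and 0.713, and leaving out the dimmest array of each run gave 0.782 and 0.599. A second *Hsp90b1* probe correlated with *Hspa5* at 0.443 over the 30 mice, just below the 0.448 that 5% of all probes exceeded.

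*Hspa1b* went with *Hspa1a*, at r = 0.776 (permutation p = 2e-05, adjusted p = 6e-05, rho 0.781) for genes whose transcripts these probes may not tell apart. In run 1 it was 0.973 and in run 2 0.44 (permutation p = 0.126). *Hspa1b* also went with *Hspa5*, at 0.656 (permutation p = 0.00071, adjusted p = 0.00106, rho 0.647), a gene known to answer to stress in another compartment. This relation was 0.848 in run 1 and 0.307 in run 2, where the *Per3* 4/4 mice gave 0.723 and the WT mice -0.552. *Hsph1* and *Dnajb1*, known targets of heat shock factor 1 like *Hspa1b*, gave correlations with it of 0.408 (permutation p = 0.0251, adjusted p = 0.0301, rho 0.482) and 0.362 (permutation p = 0.0437, adjusted p = 0.0437, rho 0.411). Neither passed the threshold without the 2 mice farthest from the median of *Hspa1b*, where r was 0.365 (adjusted p = 0.0857, permutation) and 0.288 (adjusted p = 0.156, permutation). For *Dnajb1* the value was 0.904 in run 1 and -0.055 in run 2. In the WT mice of run 2 the correlations of *Hspa1b* with *Hspa1a*, *Hsph1* and *Dnajb1* were negative too, at -0.295, -0.331 and -0.598. A second *Dnajb1* probe correlated with *Hspa1b* at 0.657 over the 30 mice, and with *Hspa5* at 0.106. The dim second *Hspa1b* probe correlated with *Hspa5* at 0.327, below the 0.448 that 5% of all probes exceeded. Neither the runs nor the pairs were tested against each other.

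**Figure D4:**
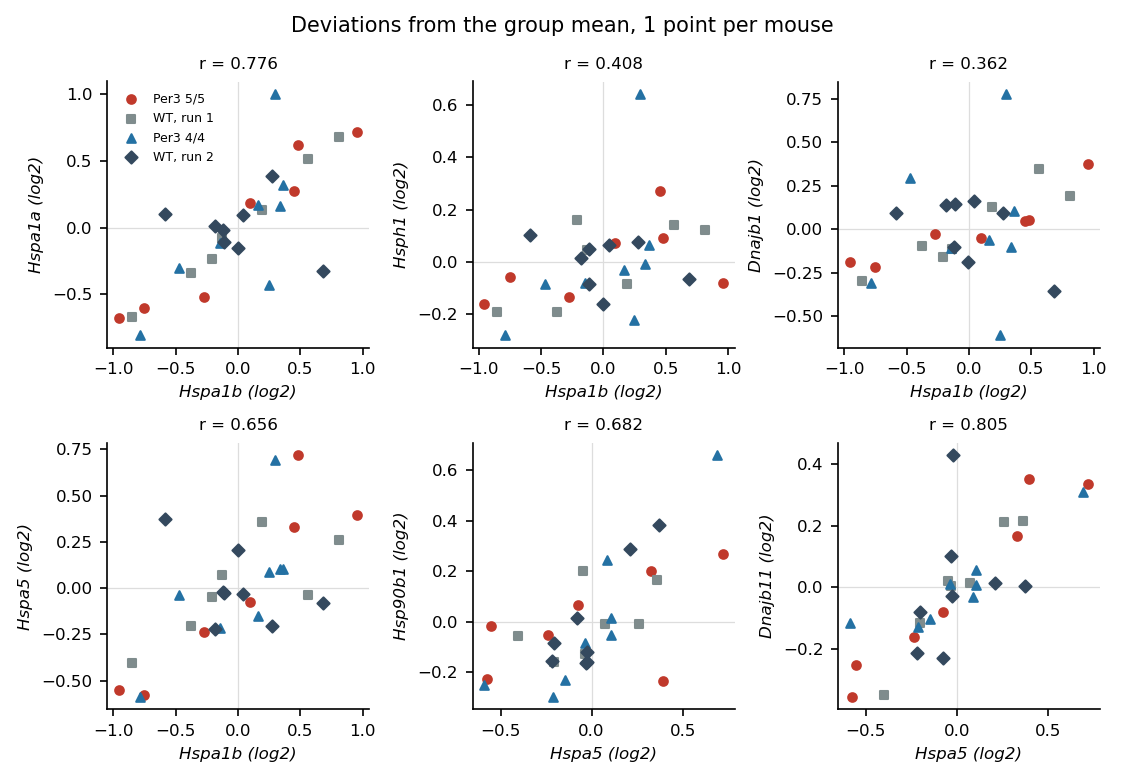
Deviation from the group mean (log2 scale) of 1 chaperone against another over 30 mice, for the 6 pairs, with symbols by group. *Hspa5* and *Dnajb11* lie closest to a line (r = 0.805) and *Hspa1b* and *Dnajb1* farthest from one (r = 0.362).

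Promoter sequences of *Hspa5* and of ER genes that varied with it are shown here because the letters bound by the ER stress factors are known. RefSeq windows (GRCm38.p6) from 250 bases before to 50 bases after the start were found for 60 of the 74 genes. The ER stress element was searched on both strands as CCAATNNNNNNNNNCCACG, with any base at N, and the ER stress element II as ATTGG and CCACG with 1 base of any kind between them. Capitals mark the match, 5′ to 3′ on the strand of the gene. The first is in the windows of *Hspa5* (chr2:34772005-34772063), *Hsp90b1* (chr10:86705513-86705676, minus strand, 2 matches, the latter on the opposite strand) and *Dnajc3* (chr14:118937807-118937865), and the second in that of *Dnajb11* (chr16:22857844-22857870). *Pdia6* (chr12:17266471-17266529) and *Creld2* (chr15:88819500-88819558, match on the opposite strand), which are ER proteins outside the family, are shown as well. Both hold the first element and were among the genes most like *Hspa5*, so they are no independent comparison.
Hspa5: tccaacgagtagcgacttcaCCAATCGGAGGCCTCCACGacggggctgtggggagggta
Hsp90b1: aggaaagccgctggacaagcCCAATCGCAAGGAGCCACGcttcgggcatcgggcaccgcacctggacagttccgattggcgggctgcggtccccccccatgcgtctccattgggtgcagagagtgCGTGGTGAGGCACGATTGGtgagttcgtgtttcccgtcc
Dnajc3: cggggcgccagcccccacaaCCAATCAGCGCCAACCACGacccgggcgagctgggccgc
Dnajb11: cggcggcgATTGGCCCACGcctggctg
Pdia6: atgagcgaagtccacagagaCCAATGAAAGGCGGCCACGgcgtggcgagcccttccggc
Creld2: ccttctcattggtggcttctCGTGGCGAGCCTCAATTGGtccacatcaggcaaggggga

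The ER stress element was in 3 of 60 member windows (5%) and in 35 of 27025 promoters (0.13%), and the ER stress element II in 1 member window (1.67%) and in 10 promoters (0.037%). *Hspa5* and its partners are known targets of the unfolded protein response, so these shares were no test of the family. The *Hspa5* match runs from base -65 to -47 relative to the start, and the *Dnajb11* match from base 7 to 17 after it. Across mice, the correlation with *Hspa5* of deviations from the group means was 0.682 for *Hsp90b1*, 0.58 for *Dnajc3* and 0.805 for *Dnajb11*. Of the 20 genes of the unfolded protein response list with a window, 5 held the first element (*Calr*, *Canx*, *Pdia6*, *Creld2* and *Syvn1*), and they ranged from 0.262 for *Syvn1* to 0.892 for *Pdia6*. Among genes of that list with a window but neither element, *P4hb* was at 0.03, *Sel1l* at 0.715 and *Sdf2l1* at 0.734. Whether the element goes with likeness to *Hspa5* was not tested. CCAAT alone, which is part of the first element and reads ATTGG on the opposite strand in the second, was in 23 of 60 member windows (38.3%) and in 37.9% of all promoters. The cyclic AMP response element TGACGTCA was in 1 member window, that of *Dnajc27* (1.67%), and in 1.88% of promoters. A match is a description of the sequence and not a bound site.

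For the heat shock response, the letters GAANNTTCNNGAA (heat shock element) and their shorter part GAANNTTC were searched on both strands. Inducible members are known targets of heat shock factor 1, so the shares below were likewise no test of the family. The longer form was in 3 member windows (5%), those of *Hspe1* (chr1:55088039-55088096, 2 overlapping matches, one on each strand), *Dnajb6* (chr5:29735832-29735884) and *Hsph1* (chr5:149636287-149636308, minus strand, match on the opposite strand), and in 143 promoters (0.529%). The shorter form was in 11 of 60 member windows (18.3%) and in 7.95% of all promoters. It was in 6 of the 9 heat-inducible members with a window, among them *Hspa1a* (chr17:34972233-34972280) and *Hspa1b* (chr17:34959315-34959362), both on the minus strand. Those copies shared 247 of the 250 bases before the start (98.8%) and are shown to make plain how alike they are.
Hspe1: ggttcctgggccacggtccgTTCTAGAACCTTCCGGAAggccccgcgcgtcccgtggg
Dnajb6: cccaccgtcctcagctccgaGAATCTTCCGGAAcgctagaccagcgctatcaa
Hsph1: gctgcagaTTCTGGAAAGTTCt
Hspa1a: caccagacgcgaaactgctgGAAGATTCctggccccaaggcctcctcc
Hspa1b: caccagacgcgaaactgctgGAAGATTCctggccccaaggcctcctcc

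Across the whole array, 12 of 134 member probes, of 10 genes, were in the top 1% of all probes by correlation with *Hspa5* (r above 0.592). They were probes for *Dnaja1*, *Dnajb11*, *Dnajc28*, *Hsp90b1*, *Hspa12a*, *Hspa13*, *Hspa1a*, *Hspa1b*, *Hspa4l* and *Hsph1*, or 8.96% of the members against 1% of all probes. Within run 1 alone the count was 9 (6.72%), within run 2 it was 4 (2.99%), and without the dimmest array of each run it was 11 (8.21%). The genes most like *Hspa5* over the 30 mice were *Manf* (0.901), a secreted ER stress protein, *Pdia6* (0.892), a disulfide isomerase, *Mrps6* (0.841), a mitochondrial ribosomal protein, and *Creld2* (0.832), another ER stress protein. The most alike member was *Dnajb11*, followed by *Hspa1a* (0.784). For *Hspa1b* the most alike were *Hspa1a* (0.876, by the probe of it not used for the pair above), the RNA methyltransferase subunit *Mettl3* (0.829) and *Xbp1* (0.768), the transcription factor of the unfolded protein response. These correlations share arrays and are descriptions.

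By group, the median correlation with *Hspa5* was 0.54 for the heat-inducible members and for the ER members, 0.51 for the Hsp90 genes and 0.50 for the Hsp110 genes. It was 0.47 for class A J proteins, 0.42 for the cytosolic Hsp70 genes, 0.36 for the unfolded protein response genes outside the family, 0.28 for class B J proteins, 0.22 for the mitochondrial members, 0.22 for the small heat shock proteins, 0.21 for heat shock factors and cochaperones, and 0.16 for the synaptic J proteins. The median over all probes was -0.05, with 5% of probes below -0.421 and 5% above 0.448. Within the ER list the values ran from 0.099 for *Dnajc25* and 0.13 for *Dnajc1* to 0.805 for *Dnajb11*. The activity-regulated genes, a list of immediate early genes, had a median of 0.06.

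**Figure D5:**
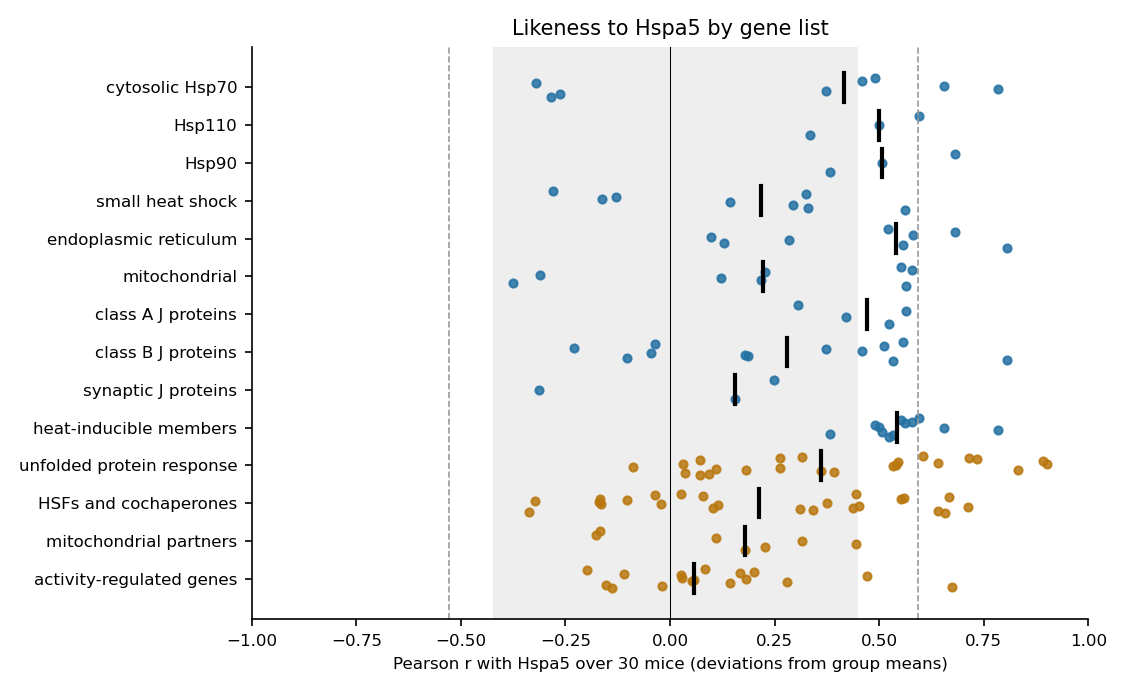
Correlation with *Hspa5* over 30 mice (horizontal axis, Pearson r of deviations from group means) for the genes of each chaperone group (blue) and of related lists (ochre), with a point per gene, a black bar at each median, a shaded band between the values that 5% of all probes lie below (-0.421) and 5% above (0.448), and dashed lines at the same limits for 1%. ER and heat-inducible members lie mostly above the band, synaptic and mitochondrial members mostly within it.

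Markers of other cell types also moved with *Hspa5*, and the brightness of the arrays did so within each run, with opposite signs. The mean of the smooth muscle and pericyte markers (7 genes, most abundant *Acta2*) correlated with *Hspa5* at -0.519, that of the endothelial markers (9 genes, most abundant *Cldn5*) at -0.483, that of meninges and fibroblasts (7 genes, most abundant *Dcn*) at 0.458, that of oligodendrocytes (8 genes, most abundant *Mbp*) at -0.375, that of blood (5 genes, most abundant *Hbb-b1*) at -0.356, and that of hypothalamic neurons (15 genes, most abundant *Hcrt*) at 0.322. The summed log2 level of the smooth muscle markers ran from 2.98 to 3.38 in *Per3* 5/5 mice, 3.06 to 3.63 in WT of run 1, 3.27 to 3.90 in *Per3* 4/4 and 3.31 to 3.93 in WT of run 2. None of these lists had a gene that was never above background. The correlation of *Hspa5* with the brightness of the array (log2 of the 75th percentile) was 0.545 in run 1, -0.554 in run 2 and -0.135 over the 30 arrays. With the percentage of spots well above background it was 0.076 in run 1, -0.39 in run 2 and -0.2 over the 30 arrays. The part of cell composition and of brightness in the shared variation was not tested. With the means of slide and genotype removed, the correlations of *Hspa5* with *Dnajb11* and *Hsp90b1* were 0.833 and 0.682.

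Partner genes, which apart from *Hspbp1* lie outside the naming rule, gave as few calls. Of 24 heat shock factors and cochaperones tested, 0 passed the adjusted test in either line, and at an unadjusted p of 0.05 2 were lower in *Per3* 5/5 and 0 in *Per3* 4/4, where 6.17% and 1.73% of all probes were at that p. Those 2 were *Cryab* (-0.41, limma p = 0.0202, adjusted p = 0.796), a small heat shock protein outside the naming rule, and *Fkbp5* (-0.44, p = 0.0256, adjusted p = 0.796), a glucocorticoid-induced partner of Hsp90. The list's median log2 fold change was 0.09 in *Per3* 5/5, against -0.02 over all probes, and -0.01 in *Per3* 4/4, against 0.01. Of 23 unfolded protein response genes, 1 was at an unadjusted p of 0.05 in *Per3* 5/5, the transcription factor *Atf4* (0.33, p = 0.0253, adjusted p = 0.796), and 0 were in *Per3* 4/4. Their medians were -0.02 and -0.01. Of 7 mitochondrial chaperone partners, 0 passed the unadjusted test in *Per3* 5/5 (median 0.16) and 1 did in *Per3* 4/4 (median -0.02), the protease *Lonp1* (-0.16, p = 0.0165, adjusted p = 1.0).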

How the data were processed

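Hypothalamic RNA of 30 mice was labelled with Cy3 and hybridized to 1-colour Agilent arrays, 1 mouse per array. The authors deposited the scanner software's output, from which the background-subtracted and processed signal of each spot was taken as an intensity, and a table of their own normalized log2 values, which was used as an alternative. The authors had left out 1 array each of *Per3* 5/5 and WT for quality. The headers of run 1 name the build mm9 and those of run 2 name mm8, where processed signals were rounded.

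Control and outlier spots were dropped, spots of a probe averaged, and log2 signals shifted by the 75th percentile of each array. Probes well above background on 0.5 or more of the arrays of any 1 genotype (29946 of 41174) were fitted together over 30 arrays with genotype and run as terms (limma 3.58.1 in R 4.3.3), and p-values were adjusted by Benjamini-Hochberg over all of them. Slide membership was read from shared scan times, and each run held 4 slides with both genotypes on each. The main probe of a gene, used in lists and correlations, was its tested probe with the highest mean level. Correlations used deviations from group means and 100000 permutations (Python 3.11.15, scipy 1.17.1). Of the 144 member probes, 120 were matched to RefSeq by accession. Promoters and their coordinates came from RefSeq (GRCm38.p6), probe positions from the array's annotation in mm9.

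Named probes were *Hspa5*, *Hspa1b* and *Hspa1a*, the smallest p-values and the most extreme fold changes in each comparison, the largest residual SDs, and genes whose probes disagreed. Members and lists were chosen with earlier results of these data known. Alternatives were the run term, slide as a random block, array weights, the replicate block, normexp background correction (offset 50), quantile normalization, other filters, the authors' table, the rank product, the methods' t-test and leaving out each array. The fits were tested on simulated data. The markers of one further tissue are not reported here.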

Additional observations from a re-analysis of the deposited data

Results flagged for a closer look

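For 29 named probes in 4 groups (116 groups of values), the highest or lowest mouse was set against the spread of its group, and 9 stood apart from the rest. Chance flags about 1 in 20 groups, but the probes were chosen in part for a large spread or an extreme fold change, so that rate is no comparison for this count. On the log2 scale, the highest values standing apart were *Hsp90aa1* in *Per3* 5/5 mouse 2 (7.09, next 6.81), *Dnajb3* in *Per3* 5/5 mouse 6 (-0.49, next -0.72), *Dnajb6* in *Per3* 4/4 mouse 4 (1.43, next 0.65), *Dnajb4* in WT mouse 12 (-2.74, next -4.43) and *Hspb3* in WT mouse 10 (0.43, next -2.08). The lowest standing apart were *Dnajc1* in WT mouse 15 (-0.22, next 0.44), on the second dimmest array of run 2, *Dnajc22* in WT mouse 5 (-7.73, next -5.60), *Dnajc5b* in WT mouse 4 (-5.64, next -5.31) and *Dnajb13* in WT mouse 8 (-6.59, next -4.29). The probes for *Dnajc22*, *Dnajc5b*, *Dnajb13* and *Dnajb4* were dim, and on some arrays they were not above background. None of *Hspa5*, *Hspa1a* and *Hspa1b* had a value that stood apart in this way in any group.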

How the results depend on the processing

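No member was called in either line under any alternative run within the design: no array left out, no slide block, array weights, other normalization, filter or test gave a member call. Without the run term, which sets each line against WT mice of both runs, 0 members were still called for each line, 57 of 135 were for the difference between lines (14865 of all 29946 probes), and 33 (24.4%, against 24.0% of all probes, *Per3* 5/5) and 38 (28.1%, against 29.4%, *Per3* 4/4) were at an unadjusted p of 0.05. Signs turned without the run term for *Hspa1b* (0.058), its dim probe (0.34) and one *Hspa1a* probe (0.022) in *Per3* 4/4, and for *Dnajb5* (0.13), *Dnajc1* (0.089) and *Hsp90aa1* (-0.16) there, and in *Per3* 5/5 for *Dnajb9* (-0.027), *Dnajc24* (0.94), *Dnajc5* (-0.11) and *Hspa9* (-0.014).

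In *Per3* 5/5, the 9 members at an unadjusted p of 0.05 became 30 with array weights (22.2%, against 10.6% of all probes), 18 with slide as a random block (13.3%, against 11.0%), 24 with array brightness as a term (17.8%, against 17.4%) and 5 to 15 when single arrays were left out. In *Per3* 4/4, the 0 became 2 (1.48%) each with array weights, quantile normalization and the slide block, against 5.42%, 2.01% and 3.01% of all probes, and 0 to 4 when single arrays were left out (4, or 2.96%, without *Per3* 4/4 mouse 7 or WT mouse 13, against 4.42% and 5.19%). With the replicate block in run 1 the count for *Per3* 5/5 was 14 (10.4%, against 11.6% of all probes) with 0 called. The numbers do not pair the mice: deviations of same-numbered mice correlated at -0.285 to 0.399, and only number 4 matched its own number best. No paired fit was run for *Per3* 4/4 because it shares only number 8 with the WT mice of its run.

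In *Per3* 4/4, the log2 fold change of *Hspa5* was -0.008 with array weights, -0.032 with normexp and -0.089 to 0.094 without single arrays. Without single arrays, that of *Hspa1a* was -0.133 to 0.039 and -0.15 to 0.11 by its probes (0.003 for the latter with the brightness term), that of the dim *Hspa1b* probe -0.24 to 0.18 (-0.325 to 0.014 in *Per3* 5/5), and that of *Hspb3* -0.422 to 0.091. In *Per3* 5/5, *Hspa5* ran from -0.22 to 0.00 and *Hspa1b* from -0.62 to -0.30 without single arrays. Over all alternatives *Hspa5* ran from -0.34 to -0.004 there and *Hspa1b* from -0.838 to -0.303. The *Hspa1a* probes ran from -0.753 to -0.344 and from -0.72 to -0.305, and the dim *Hspa1b* probe from -0.551 to 0.014. Correlations no longer past the threshold in one run were those of *Hspa1b* with *Hspa1a* (0.44), *Hspa5* (0.307), *Hsph1* (0.292) and *Dnajb1* (-0.055) and of *Hspa5* with *Dnajb11* (0.552) in run 2, and of *Hspa5* with *Hsp90b1* in run 1 (0.525). Without the 2 farthest mice those of *Hspa1b* with *Hsph1* (0.365) and *Dnajb1* (0.288), and without the dimmest arrays that with *Dnajb1* (0.367), fell below it too. Apart from the run term, whose construction mixes the runs, the cause of these changes was not tested. With 7 or 8 arrays a group, the median SE of a member's log2 fold change was 0.15 in *Per3* 5/5 and 0.14 in *Per3* 4/4 (highest 0.37 and 0.35), which limits what could be seen.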

Other observations

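The activity-regulated genes, immediate early genes that neurons switch on when they fire, had mostly negative values in both KI lines, and 0 of 17 passed the adjusted test in either. All 17 had a negative log2 fold change in *Per3* 5/5 (median -0.29, against -0.02 over all probes, of which 13632 of 29946 were positive) and 15 of 17 did in *Per3* 4/4 (median -0.39, against 0.01, with 15478 positive). The 17 genes were measured in the same mice and can vary together, so these counts are not of independent observations. Some marker lists of other tissue had negative medians in *Per3* 5/5 as well. They were -0.77 for choroid plexus (0.92 in *Per3* 4/4) and -0.60 for cortex and hippocampus (0.02 in *Per3* 4/4). The part of dissection in the values of the activity-regulated genes was not tested. At an unadjusted p of 0.05, which 6.17% of all probes passed in *Per3* 5/5 and 1.73% in *Per3* 4/4, 3 passed in *Per3* 5/5, namely *Egr3* (-1.50, limma p = 0.0441), *Egr4* (-1.30, p = 0.0229) and *Arc* (-0.85, p = 0.0438), and 2 in *Per3* 4/4, *Fosb* (-0.63, p = 0.0267) and *Ier2* (-0.48, p = 0.0228).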
